A study of Homo sapiens with 4 samples.

Results

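The kinesin, dynein and dynactin genes were taken from the PDCD4 and IgG iCLIP lists as every crosslink site whose label holds a gene symbol starting with KIF or KLC followed by a digit, DCTN followed by a digit, or DYNC1, DYNC2, DYNLL, DYNLT or DYNLRB. Sites of every score were kept. The rule found 52 of the 14416 genes named in the lists: 29 kinesin heavy chain genes, 4 kinesin light chain genes, 4 dynein 1 genes, 2 dynein 2 genes, 5 dynein light chain genes and 6 dynactin genes, together with KIF1BP, which encodes a kinesin binding protein and no motor, and the antisense lncRNA KIF9-AS1. The study asked which RNAs are contacted by PDCD4, an RNA-binding protein with tumour suppressor function, in wild-type MCF10A cells, an established untransformed line of breast epithelial cells. RNA was cross-linked to protein with UV light, and the complexes were precipitated with an antibody to PDCD4 (2 replicates) or with IgG as the isotype control (2 replicates); cDNAs made from the attached RNA tend to stop at the cross-linked nucleotide and so mark the site of contact. Both groups were the same untreated genotype, so the antibody was the only difference the labels give. The authors deposited 1 list per antibody, in which the replicates are merged, so no spread between replicates can be given and no test was run. Intervals are 95% exact intervals that cover counting error only.

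Kinesins and cytoplasmic dyneins are ATP-driven motors that walk along microtubules, most kinesins towards the plus end and dynein towards the minus end. Kinesin light chains and the dynein intermediate and light chains attach the motors to cargo, and dynactin is the large complex that dynein needs for processive movement. In dividing cells a subset of kinesins builds the spindle and completes cytokinesis, while in interphase epithelial cells the motors position organelles, vesicles and mRNAs.

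The score of a site is the number of cDNAs counted at 1 nucleotide. In total 409308 cDNAs stood at 158922 sites of the PDCD4 list and 276139 at 111361 sites of the IgG list. Sites that failed the authors' filter on the false discovery rate are not in the lists, and crosslink sites seen with IgG were subtracted from the PDCD4 replicates before peak calling, so a gene without a site in a list is described as not listed there, not as unbound. Of the 10 epithelial markers, all had sites (1907 PDCD4 and 654 IgG cDNAs in sum), whereas none of the 3 blood, 2 endothelial and 2 neuronal markers was listed. The abundance of the RNAs was not analysed here, and its part in any count was not tested.

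The strongest contacts in these genes are shown first, since they place the signal in named exons. Each line gives 30 bases of the reference genome (GRCh38, RNA strand) with the crosslinked nucleotide in capitals, 14 bases before it and 15 after it. The first 4 are the sites with more than 5 cDNAs in the PDCD4 list, which was the threshold of the study's methods. They are the dynactin subunit DCTN1 with 10 cDNAs in the 3′UTR (chr2:74361422-74361451, minus strand), the kinesin-3 motor KIF1C with 7 in the coding sequence of exon 23 (chr17:5024088-5024117, plus strand), the dynein heavy chain DYNC1H1 with 6 in exon 46 (chr14:102027459-102027488, plus strand) and the ciliary kinesin KIF7 with 6 in exon 19 (chr15:89628455-89628484, minus strand).
DCTN1: cgctctgcccgatgCacagccacctcagcc
KIF1C: tcccccacgaatgaGacggcagcgttctgc
DYNC1H1: aaaagatagcatttAtaatggatgaatcta
KIF7: aagccccggcgggaActgcgacgagccagc
The KIF1C site lay 46 nucleotides before the last coding base and the KIF7 site 48 nucleotides before it, so both were in the final coding exon close to the stop codon. The DCTN1 site carried the label of a second, overlapping gene as well, so its cDNAs cannot be given to DCTN1 alone.

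The next 4 lead groups of neighbouring PDCD4 sites, merged where they were within 20 nucleotides, that summed to at least 9 cDNAs. They lie in the 3′UTR of the dynein light chain gene DYNLL2 (chr17:58089502-58089531, plus strand), in exon 8 of the conventional kinesin KIF5B (chr10:32037322-32037351, minus strand), in exon 13 of the mitotic kinesin KIF18B (chr17:44928278-44928307, minus strand) and in exon 59 of DYNC1H1 (chr14:102038737-102038766, plus strand).
DYNLL2: gactttaaaaatatTttttggttgtattgc
KIF5B: acagtatatttcttAttaatgtcaaacaag
KIF18B: cacccaaccttcacAggggcccagcacccc
DYNC1H1 exon 59: gtaaacttcacagtTacccgtagcagttta
The DYNLL2 and KIF5B groups held 10 cDNAs each over 3 sites, the KIF18B group 9 over 4 sites and the DYNC1H1 exon 59 group 9 over 3 sites. All 8 of these stretches occurred once in the genome when the 30 bases that follow the crosslinked nucleotide were searched.

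The IgG list also had 4 sites with more than 5 cDNAs in these genes, each with 6 cDNAs, and they are printed for comparison. They lie in intron 41 of DYNC1H1 (chr14:102019156-102019185, plus strand), intron 12 of the mitotic kinesin KIF14 (chr1:200600196-200600225, minus strand), intron 3 of the chromokinesin KIF4A (chrX:70291327-70291356, plus strand) and exon 17 of KIF5B (chr10:32022213-32022242, minus strand).
DYNC1H1 intron 41: tataaaggctgcatAtctgccagattgctc
KIF14 intron 12: catattttaaatatTactaggtagttgcct
KIF4A intron 3: gctctgctctcataCaaagtggtatgaaaa
KIF5B exon 17: aagtcattgactgaAtaccttcaaaatgtg
Of the 4 IgG sites above the threshold 3 were intronic, whereas the 4 PDCD4 sites were coding or in a 3′UTR. Over all genes and scores, introns likewise held more of the IgG cDNAs, at 68.4%, than of the PDCD4 cDNAs, at 52.3%. The difference among so few sites was not tested. Sites above the threshold were 0.53% of the PDCD4 and 0.88% of the IgG sites in these genes, beside 1.48% and 0.69% over all genes. No site of either list in these genes exceeded 10 cDNAs, compared with a highest score of 87 over all PDCD4 sites.

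In sum the motor and dynactin genes held 1910 PDCD4 cDNAs at 749 sites and 1128 IgG cDNAs at 452 sites. That was 0.467% of the PDCD4 cDNAs (0.446 to 0.488) and 0.408% of the IgG cDNAs (0.385 to 0.433), a log2 ratio of the shares of 0.19 (0.09 to 0.30). Contacts were mostly spread out: the mean score was 2.55 cDNAs per site for PDCD4, against 2.58 over all genes, and 2.50 for IgG, against 2.48. Of 647 groups of PDCD4 sites, 566 were single sites and 17 had at least 3 sites, and of 415 IgG groups these were 388 and 6. In these genes 3 positions were listed for both antibodies, and over all genes 721 of the 158922 PDCD4 and 111361 IgG sites were. The authors subtracted IgG sites from the PDCD4 replicates, and the part of this step in the number of shared positions was not tested.

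**Figure D1:**
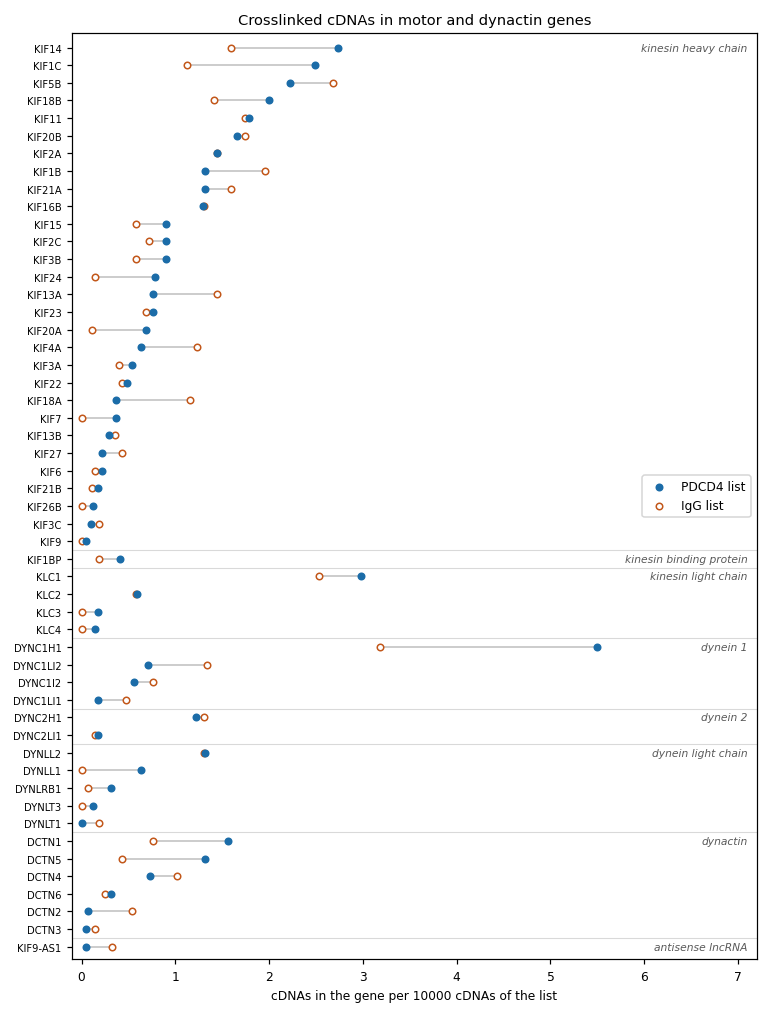
cDNAs in each of the 52 genes per 10000 cDNAs of its list (x axis), with the PDCD4 list as filled and the IgG list as open circles, grouped by the role of the protein. DYNC1H1 is the farthest right in both lists, at 5.50 and 3.19, and most genes have both circles between 0 and 3.

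Of the 52 genes, 44 had sites in both lists, 7 had sites in the PDCD4 list only and 1, DYNLT1, in the IgG list only. As background, PDCD4 sites were listed for 12932 of all 14416 genes and IgG sites for 11846, beside 51 and 45 of these 52. A fold was read only for the 37 genes with at least 20 cDNAs over both lists, as the log2 ratio of PDCD4 over IgG shares with 1 cDNA added to each sum. Of these 37, 6 were at least 2-fold higher in PDCD4, where 16.4% of the 7305 genes tested the same way were higher, and 2 were at least 2-fold lower, where 16.1% of all genes were lower. The median log2 ratio was 0.03 with quartiles of -0.33 and 0.59, beside a median of -0.10 and quartiles of -0.71 and 0.62 over all genes. The higher genes were thus about as frequent as among all genes and the lower genes less frequent, a difference that was not tested. The counting interval lay above 0 for 8 of the genes, where 20.1% of all genes tested had such an interval, and below 0 for 5, where 23.8% of all genes did.

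**Figure D2:**
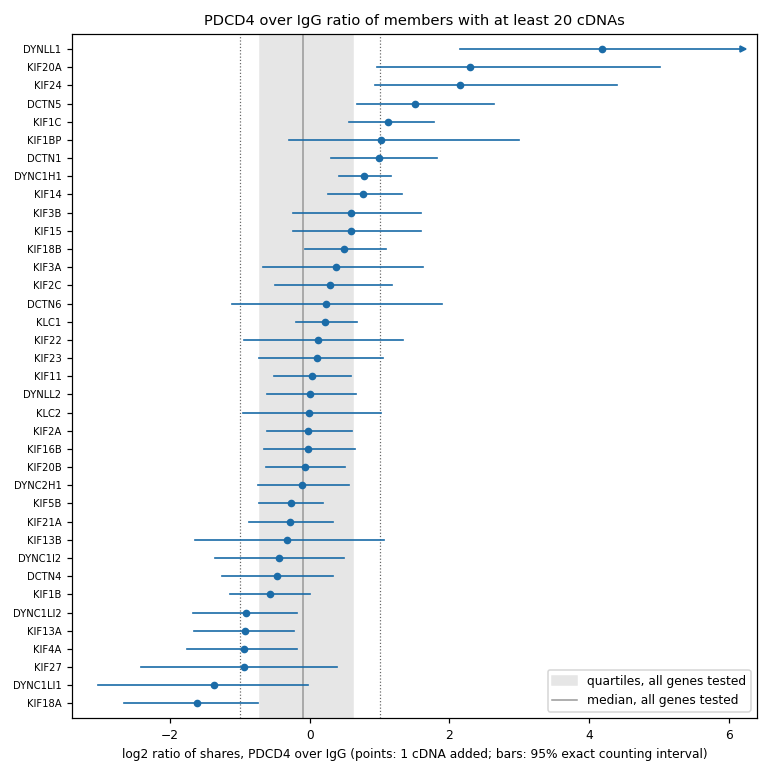
Log2 ratio of PDCD4 over IgG shares (x axis) for the 37 genes with at least 20 cDNAs, with 1 cDNA added to each sum and bars for the 95% exact counting interval; the grey band and line are the quartiles and the median of all 7305 genes tested, dotted lines mark 2-fold, and the arrow marks an interval without an upper end. DYNLL1, KIF20A, KIF24, DCTN5, KIF1C and KIF1BP lie above 1, and KIF18A and DYNC1LI1 below -1.

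Among the kinesin heavy chains, the count, which is not corrected for length, was highest for KIF14, a kinesin-3 motor of the midbody that is needed for cytokinesis. It had 112 PDCD4 cDNAs and 44 IgG cDNAs, a log2 ratio of 0.76 (0.26 to 1.32). KIF14 contacts were divided between coding sequence, with 39 PDCD4 and 9 IgG cDNAs, and introns, with 51 and 29. The spindle motor KIF11, the target of Eg5 inhibitors, had nearly equal shares, with 73 and 48 cDNAs and a log2 ratio of 0.03 (-0.51 to 0.59). KIF20B, a kinesin-6 that acts in late mitosis, had 68 and 48 cDNAs, a log2 ratio of -0.07 (-0.62 to 0.50).

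KIF20A, the kinesin-6 that carries the chromosomal passenger complex to the midzone, had 28 PDCD4 cDNAs at 11 sites and 3 IgG cDNAs at 1 site, all exonic. Its log2 ratio was 2.29 (0.96 to 5.02), which is the highest of the mitotic kinesins. KIF18A, a kinesin-8 that dampens chromosome movements on the spindle, lay at the other end with 15 and 32 cDNAs and a log2 ratio of -1.61 (-2.65 to -0.73). Most KIF18A cDNAs were intronic, 11 of 15 for PDCD4 and 27 of 32 for IgG. Its paralog KIF18B, which shortens astral microtubules, had 82 and 39 cDNAs and a log2 ratio of 0.49 (-0.06 to 1.09), and in its coding sequence 32 PDCD4 cDNAs stood beside 2 IgG cDNAs. KIF4A, which organises the anaphase midzone, had 26 and 34 cDNAs, a log2 ratio of -0.94 (-1.75 to -0.18), of which 20 and 30 were intronic.

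The remaining mitotic kinesins KIF2C, KIF15, KIF22 and KIF23 had log2 ratios between 0.11 and 0.59. Over the 11 mitotic kinesins, 1 was higher by at least 2-fold (16.4% of all genes), 1 was lower (16.1% of all genes), and the median log2 ratio was 0.12. Of the other 18 kinesin heavy chain genes, 12 reached 20 cDNAs, 2 of them were higher, none was lower, and the median was -0.15. Both medians lay within the quartiles of all genes.

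KIF1C, which moves vesicles and integrins and has been linked to mRNA transport, was the transport kinesin with the most PDCD4 cDNAs. It had 102 PDCD4 cDNAs at 35 sites and 31 IgG cDNAs at 10 sites, a log2 ratio of 1.12 (0.56 to 1.78). Coding sequence held 61 and 18 of these cDNAs, which is 18.4 and 5.44 cDNAs per kilobase of coding sequence. KIF1C was not past 2-fold when exonic or intronic cDNAs were set against their own totals, with log2 ratios of 0.68 (0.03 to 1.47) and 0.88 (-0.24 to 2.28). KIF5B, the ubiquitous heavy chain of conventional kinesin, had 91 and 74 cDNAs, a log2 ratio of -0.27 (-0.73 to 0.19). For exonic cDNAs against exonic totals the KIF5B ratio was -0.90 (-1.45 to -0.33), with 62 PDCD4 and 51 IgG cDNAs. KIF5B was therefore well covered in both lists, and in exons its PDCD4 share was lower than its IgG share.

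KIF1B, which transports mitochondria and vesicle precursors, had 54 cDNAs in each list, a log2 ratio of -0.57 (-1.14 to 0.00). KIF13A, an endosomal motor, had 31 and 40 cDNAs, a log2 ratio of -0.93 (-1.66 to -0.22). Introns held 26 of the 31 and 32 of the 40, and an intron 2 group of 9 IgG cDNAs at 3 sites lay where the following 30 bases occur between 154 and 9363 times in the genome, depending on the site. KIF21A, which restrains microtubule growth at the cell cortex, had 54 and 44 cDNAs, a log2 ratio of -0.28 (-0.87 to 0.34). KIF16B, another endosomal motor, had 53 and 36, and KIF2A, a kinesin-13 that depolymerises microtubules, had 59 and 40, both with a log2 ratio of -0.02. Of the KIF2A cDNAs, 9 for PDCD4 and 17 for IgG lay outside the gene in the annotation used here. Its exonic cDNAs gave a log2 ratio of -0.05 (-1.10 to 1.26) and its intronic cDNAs one of 0.81 (-0.14 to 1.95).

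KIF24, a kinesin that restrains the growth of cilia, had 32 PDCD4 cDNAs and 4 IgG cDNAs, a log2 ratio of 2.15 (0.94 to 4.39), and 24 and 4 of them were intronic. KIF3A and KIF3B, the motor subunits of heterotrimeric kinesin-2, had log2 ratios of 0.37 (-0.67 to 1.62) and 0.59 (-0.24 to 1.59). In the 3′UTR of KIF3B, 21 PDCD4 cDNAs were counted and no IgG site was listed. KIF7, the Hedgehog pathway kinesin of the cilium tip, had 15 PDCD4 cDNAs at 4 sites and no listed IgG site, which is below the minimum for reading a fold. KIF13B had a log2 ratio of -0.33 and KIF27 of -0.95, both with intervals that include 0. KIF1BP, whose product binds kinesin motor domains and keeps them off microtubules, had 17 and 5 cDNAs, a log2 ratio of 1.02 with an interval from -0.30 to 2.99 and a value of 0.57 with 5 cDNAs added to each sum.

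Kinesin light chains were led by KLC1, with 122 PDCD4 cDNAs and 70 IgG cDNAs, a log2 ratio of 0.22 (-0.20 to 0.68). Its contacts were mainly intronic, with 85 and 52 cDNAs, and coding sequence held 15 and 13. Leaving out KLC1 sites that carry the label of another gene as well left 71 and 45 cDNAs and a log2 ratio of 0.076 (-0.47 to 0.66). KLC2 had 24 and 16 cDNAs, a log2 ratio of -0.01 (-0.96 to 1.03). KLC3 and KLC4 had 7 and 6 PDCD4 cDNAs and no listed IgG site.

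DYNC1H1, the heavy chain that carries the motor domain of cytoplasmic dynein 1 (ENSG00000197102, chr14:101964573-102056443, plus strand), had the most cDNAs of all 52 genes in both lists. The PDCD4 list held 225 cDNAs at 77 sites and the IgG list 88 cDNAs at 33 sites, a log2 ratio of 0.78 (0.42 to 1.16). By summed PDCD4 cDNAs it ranked at position 180 of all genes. Coding sequence held 195 PDCD4 and 49 IgG cDNAs, the 3′UTR none and 7, and introns 30 and 32. Exonic cDNAs gave a log2 ratio of 0.61 (0.19 to 1.08) against exonic totals, and intronic cDNAs one of -0.28 (-1.05 to 0.48). The exonic value also depends on region, since over all genes 22.0% of PDCD4 and 10.2% of IgG cDNAs were coding. Against coding totals, the 4 dynein 1 genes in sum had 207 and 62 cDNAs and a log2 ratio of 0.049 (-0.35 to 0.50). DYNC1H1 alone was not set against coding totals.

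The count of DYNC1H1 goes with a coding sequence of 13938 nucleotides in 78 exons. Per kilobase of coding sequence DYNC1H1 had 13.99 PDCD4 cDNAs, below DYNLL1 with 33.7, DYNLL2 with 22.5 and KIF1C with 18.4, and 3.52 IgG cDNAs. The DYNLL1 and DYNLL2 values rest on only 9 coding cDNAs at 4 sites and 6 at 2 sites. The PDCD4 coding sites of DYNC1H1 fell in 29 of the 78 exons and its IgG coding sites in 17, of which 9 were shared. Exon 8, which is 1077 nucleotides long, had 37 PDCD4 cDNAs at 12 sites and 11 IgG cDNAs at 5 sites. Exons 36 and 46, of 231 and 162 nucleotides, had 13 PDCD4 cDNAs at 4 sites each. Per kilobase of exon, exon 46 had the most PDCD4 cDNAs, at 80.2, followed by exon 37 with 63.8, exon 59 with 59.6 and exon 36 with 56.3. Exon 8 had 34.4. The values of exons 37 and 59 rest on 3 sites each. When the coding sequence was divided into 3 equal parts, the PDCD4 cDNAs were 28.1%, 51.0% and 20.8% from 5′ to 3′ (192 cDNAs in the main transcript), and the IgG cDNAs 51.0%, 28.6% and 20.4% (49 cDNAs). The middle part held 98 PDCD4 cDNAs at 35 sites (43.7% to 58.3%) and 14 IgG cDNAs at only 6 sites (16.6% to 43.3%). The first part had 18 PDCD4 and 11 IgG sites, and the last part 13 and 4. These intervals take cDNAs at the same site as independent, and the difference between the lists was not tested. Without DYNC1H1 the parts were nearly even for PDCD4 over the other genes, at 31.1%, 33.9% and 35.0%.

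**Figure D3:**
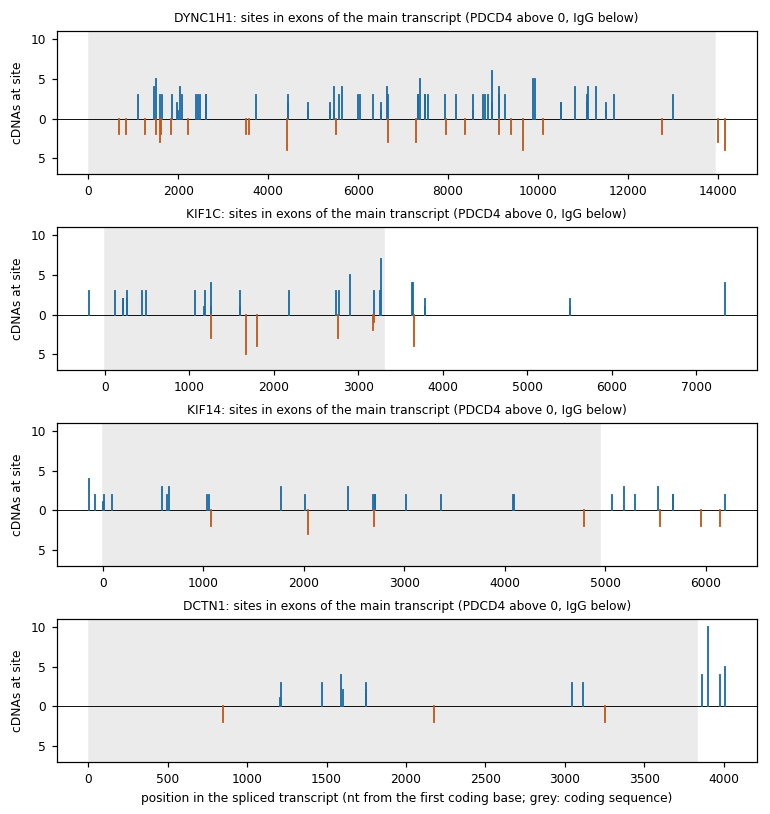
cDNAs at each exonic site (y axis; PDCD4 upwards in blue, IgG downwards in orange) along the spliced main transcripts of DYNC1H1, KIF1C, KIF14 and DCTN1 (x axis, nucleotides from the first coding base; grey marks the coding sequence). PDCD4 sites of DYNC1H1 are spread over the coding sequence with single sites of at most 6 cDNAs, and DCTN1 has its site of 10 cDNAs just after the coding sequence.

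The other dynein 1 subunits had log2 ratios below 0. DYNC1I2, the intermediate chain that binds dynactin, had 23 and 21 cDNAs, a log2 ratio of -0.44 (-1.35 to 0.49). DYNC1LI2, a light intermediate chain that links the motor to cargo adaptors, had 29 and 37 cDNAs, a log2 ratio of -0.91 (-1.67 to -0.18). Its paralog DYNC1LI1 had 7 and 13 cDNAs, a log2 ratio of -1.38 (-3.03 to -0.03). So the interval of the heavy chain lay above 0 and those of both light intermediate chains below it. DYNC2H1, the heavy chain of the dynein 2 motor of cilia, has a coding length of 12921 nucleotides and had 50 and 36 cDNAs, a log2 ratio of -0.10 (-0.74 to 0.57). Only 9 and 6 of these were coding, or 0.697 and 0.464 per kilobase, and 41 and 30 were intronic. The light intermediate chain gene DYNC2LI1 had 7 and 4 cDNAs.

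The dynein light chains include the LC8 paralogs DYNLL1 and DYNLL2, hub proteins that bind many partners besides dynein and each have a coding sequence of 267 nucleotides. DYNLL1 had 26 PDCD4 cDNAs at 11 sites, 14 in the 3′UTR, 9 coding and 3 in the 5′UTR, and no listed IgG site. Its log2 ratio of 4.19 rests on the cDNA added to the IgG sum and gave 2.06 with 5 added, so no fold is stated. DYNLL2 had 54 PDCD4 and 36 IgG cDNAs, a log2 ratio of 0.00 (-0.62 to 0.67). The 3′UTR of DYNLL2 held 45 of the 54 and all 36. Against exonic totals its log2 ratio was -0.68 (-1.32 to -0.01). Those totals mix regions: over all genes 22.0% of PDCD4 and 10.2% of IgG cDNAs were coding, and 20.0% and 17.2% were in 3′UTRs. The exonic ratio of DYNLL2 thus depends on region as well as on the gene, and no ratio against 3′UTR totals was taken for it. The paralogs differed in that only DYNLL2 had listed IgG sites, a difference that was not tested. DYNLRB1, a roadblock light chain, had 13 and 2 cDNAs, and of the Tctex light chains DYNLT3 had 5 PDCD4 cDNAs and DYNLT1 only 5 IgG cDNAs at 1 site.

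Dynactin was led by DCTN1 (p150Glued), the subunit that binds microtubules and dynein, with 64 PDCD4 and 21 IgG cDNAs, a log2 ratio of 0.995 (0.31 to 1.83) that falls just under the 2-fold limit. Its 3′UTR held 23 PDCD4 cDNAs and no IgG site, and its coding sequence 24 and 6 cDNAs. All 4 of these 3′UTR sites carried the label of an overlapping gene as well, and without them DCTN1 had 41 and 21 cDNAs and a log2 ratio of 0.36 (-0.40 to 1.23). Of its 21 IgG cDNAs, 7 were at intronic sites followed by 30 bases that occur more than once in the genome. DCTN5, a subunit of the pointed-end complex, had 54 and 12 cDNAs, a log2 ratio of 1.51 (0.68 to 2.64), with 41 and 4 in the 3′UTR. Of these 3′UTR cDNAs, 16 for PDCD4 were at sites that carry a second gene label, and without them the log2 ratio of DCTN5 was 1.01 (0.13 to 2.16). Exonic cDNAs of DCTN5 gave a log2 ratio of 2.20 (1.05 to 4.43), but its few intronic cDNAs, 3 and 8, gave one of -1.36 (-4.15 to 0.46). Of its 54 PDCD4 cDNAs, 12 were at sites whose following 30 bases occur more than once.

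The pointed-end subunits DCTN4 and DCTN6 had log2 ratios of -0.47 (-1.26 to 0.33) and 0.24 (-1.11 to 1.89). DCTN2 (dynamitin), which joins the shoulder to the filament, had 3 and 15 cDNAs, all intronic, and the shoulder subunit DCTN3 had 2 and 4. Over the 6 dynactin genes, exonic cDNAs numbered 130 and 32, a log2 ratio of 0.81 (0.28 to 1.45), and intronic cDNAs 36 and 55, a log2 ratio of -0.78 (-1.45 to -0.17). Of the dynactin PDCD4 cDNAs 51.8% were in 3′UTRs (43.9 to 59.6), against 29.9% for IgG (20.5 to 40.6). DCTN1 and DCTN5 held most of this exonic PDCD4 signal, with 49 and 51 of the 130 cDNAs. Without sites that carry a second gene label, an alternative chosen after the values were seen, the exonic cDNAs numbered 91 and 32 with a log2 ratio of 0.29 (-0.27 to 0.95), and the 3′UTR share for PDCD4 was 38.8% (30.1 to 48.1). Both dynactin differences thus rest in large part on sites shared with overlapping genes.

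The other genes with fewer than 20 cDNAs were the kinesins KIF3C, KIF6, KIF9, KIF21B and KIF26B, with 2 to 9 PDCD4 cDNAs, and KIF9-AS1, with 2 PDCD4 and 9 IgG cDNAs. The annotation used here names 68 protein-coding genes whose symbols fit the rule. Of these, 18 had no site labelled with such a symbol in either list. These include the neuronal kinesins KIF1A, KIF5A and KIF5C and the dynein intermediate chain DYNC1I1. Of the 18, DYNC2I1, DYNC2I2 and DYNLT2B did have sites, under the older symbols WDR60, WDR34 and TCTEX1D2, which the rule does not take.

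By transcript region, 34.8% of the PDCD4 cDNAs of the motor and dynactin genes were coding (32.7 to 37.0), 22.9% were in 3′UTRs, 1.83% in 5′UTRs and 39.8% in introns. For IgG these were 21.2% coding (18.8 to 23.7), 18.8% 3′UTR, 1.15% 5′UTR and 57.2% intron. Both lists had larger coding shares in these genes than over all genes, where 22.0% of PDCD4 and 10.2% of IgG cDNAs were coding. The rise in coding share from IgG to PDCD4 was thus seen in the whole lists too. With each region set against its own total, the summed log2 ratio of the motor genes was -0.20 for coding sequence (-0.41 to 0.02), 0.25 for 3′UTR (0.01 to 0.49) and 0.051 for introns (-0.10 to 0.21). Exonic sites alone left 23 genes with at least 20 cDNAs, of which 4 were higher (19.3% of 3659 genes) and 1 was lower (18.8%), with a median log2 ratio of -0.05 beside -0.08 over all genes. The 4 were DYNLL1, DCTN1, DCTN5 and KIF20A, of which DCTN1 fell to 26 and 6 exonic cDNAs and a log2 ratio of 0.76 (-0.38 to 2.50) without sites that carry a second gene label. The lower gene was DYNC1LI2, with 10 PDCD4 and 16 IgG exonic cDNAs and a log2 ratio of -1.80 (-3.15 to -0.62).

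**Figure D4:**
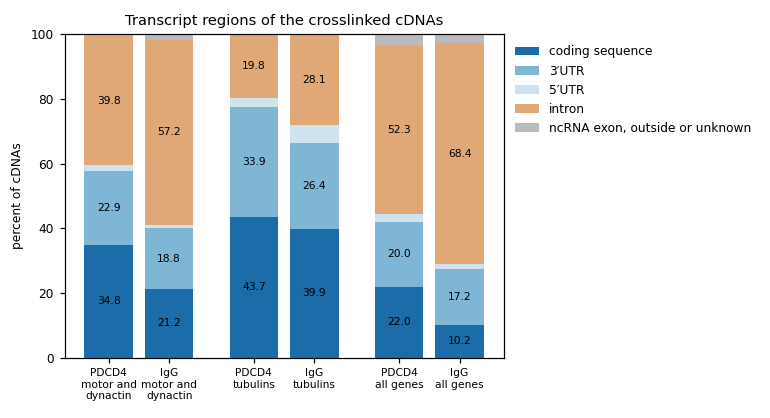
Percent of cDNAs in each transcript region (y axis, 0 to 100) for the motor and dynactin genes, the tubulins and all genes, in the PDCD4 and IgG lists. Coding shares are 34.8% and 21.2% in the motor genes, 43.7% and 39.9% in the tubulins and 22.0% and 10.2% over all genes.

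The roles differed in where their cDNAs lay. Dynein 1 was mostly coding, at 72.9% of PDCD4 cDNAs (67.3 to 78.0) and 39.0% of IgG cDNAs (31.4 to 47.0), which is mainly DYNC1H1. Dynein light chains were mostly 3′UTR, at 71.4% (61.4 to 80.1) and 83.7% (69.3 to 93.2). Kinesin light chains, at 65.4% and 69.8%, and dynein 2, at 80.7% and 85.0%, were mostly intronic in both lists.

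Coding length varied from 267 to 13938 nucleotides among the 39 genes with a coding site. Over the 37 genes with at least 20 cDNAs, coding length and PDCD4 coding cDNAs had a Spearman correlation of 0.33, and coding length and IgG coding cDNAs one of 0.38. For intronic cDNAs and gene length it was 0.50 for PDCD4 and 0.69 for IgG. The lists resembled each other more than they followed length, with correlations of 0.65 between PDCD4 and IgG coding cDNAs and 0.80 between intronic cDNAs. These are descriptions across genes that share a list and its depth. The median coding level was 4.14 PDCD4 and 1.07 IgG cDNAs per kilobase for the 39 genes, and 3.26 and 0.942 over the 7804 genes with a coding site.

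**Figure D5:**
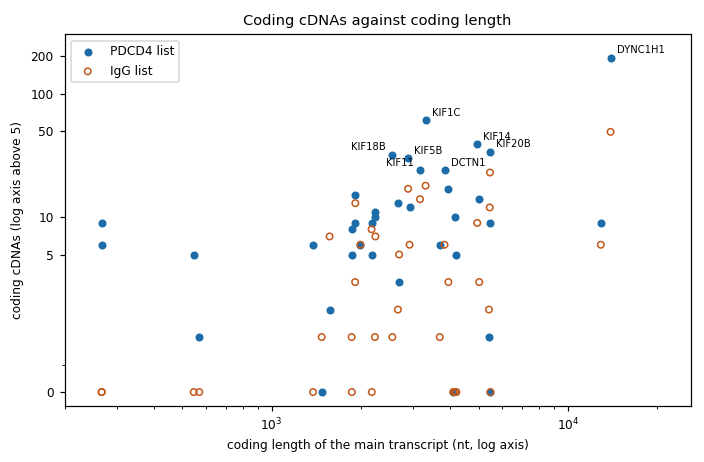
Coding cDNAs (y axis, linear up to 5 and log above) against the coding length of the main transcript (x axis, log) for the 37 genes with at least 20 cDNAs, with PDCD4 filled and IgG open. DYNC1H1 is at the upper right with 195 and 49 cDNAs, while DYNC2H1, of similar length, has 9 and 6.

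Base composition at the sites was set beside that of all genes. The crosslinked nucleotide was T in 46.1% of PDCD4 sites (42.4 to 49.7), against 46.7% over all genes, and in 52.9% of IgG sites (48.2 to 57.6), against 51.6%. In coding sequence T was less frequent, at 35.3% of PDCD4 sites (29.4 to 41.6) and 34.4% over all genes. C was less frequent at the 96 IgG coding sites of these genes, at 18.8%, than at those of all genes, at 31.9%. The 30 bases around intronic PDCD4 sites had a GC content of 36.0%, against 42.1% over all genes. Around intronic IgG sites it was lower too, at 35.8% against 39.6%. Intronic sites fell in 186 introns for PDCD4 and 152 for IgG, with median lengths over the sites of 4711 and 7129 nucleotides.

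Within internal exons of at least 150 nucleotides, sites were scarce at the 3′ end in both lists. The last 60 nucleotides held 3 PDCD4 sites and the 60 nucleotides before them 55, and for IgG these were 4 and 23. At the 5′ end no such gap was seen, with 52 PDCD4 sites in the first 50 nucleotides and 47 in the next 50, and 15 and 20 IgG sites. The same count was not made over all genes, so the gap cannot be called particular to these genes. Whether the lists kept reads across splice junctions is not given in the sources used here. Any effect of the gap on the levels per kilobase was not tested. The 30 bases that follow the site occurred more than once in the genome for 65 PDCD4 sites (8.68%) and 42 IgG sites (9.29%).

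Adaptors, regulators and partners of the motors that carry other symbols were described from a list of 44 genes, of which 38 had sites and 32 at least 20 cDNAs. Of the 32, 7 were at least 2-fold higher in PDCD4, beside 16.4% of all genes tested, and 1 was lower, beside 16.1%, with a median log2 ratio of 0.35. The number of higher genes was near the share over all genes. In sum they had 2259 PDCD4 and 1117 IgG cDNAs, a log2 ratio of 0.45 (0.34 to 0.55). The 7 higher genes were NUMA1, which anchors dynein at spindle poles, NIN and BICDL1, which are dynein adaptors, the minus-end kinesins KIFC2 and KIFC3, the dynactin filament subunit ACTR1B, and PLEKHM2, which recruits kinesin-1 to lysosomes.

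NUMA1 had 185 PDCD4 and 32 IgG cDNAs, a log2 ratio of 1.93 (1.42 to 2.55). MAPK8IP3, a scaffold between kinesin and dynactin, had the most PDCD4 cDNAs of the list, with 203 and 89 and a log2 ratio of 0.61 (0.26 to 1.00). The capping protein subunits CAPZA1 and CAPZB had log2 ratios of 0.90 (0.51 to 1.33) and 0.75 (0.29 to 1.26), while CAPZA2 had one of -0.65 (-1.74 to 0.42), and the kinesin receptor KTN1 had one of 0.35 (-0.03 to 0.76). The list was mixed: the dynein regulator PAFAH1B1 (LIS1) had a log2 ratio of -0.70 (-1.19 to -0.22), the mitochondrial adaptor TRAK1 one of -0.80 (-1.38 to -0.24) and NDEL1, which binds LIS1 and dynein, one of -0.74 (-1.51 to 0.00). The lower gene was KIFAP3, the accessory subunit of kinesin-2, with 16 and 26 cDNAs and a log2 ratio of -1.24 (-2.26 to -0.32), and no gene of the list had a site with more than 10 cDNAs.

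Tubulins, which form the tracks, and axonemal dyneins were compared as the nearest families. The 14 tubulin genes had 339 and 178 cDNAs, a log2 ratio of 0.36 (0.10 to 0.63), led by TUBB with 144 and 59. The 6 axonemal dynein heavy chain genes listed had 151 and 179 cDNAs, a log2 ratio of -0.81 (-1.14 to -0.49), of which DNAH14 alone held 120 and 163, and only 15 and 10 of their cDNAs were exonic. The summed log2 ratio of the cytoplasmic motors, 0.19 (0.09 to 0.30), lay between these values, and its interval overlapped that of the tubulins. Against exonic totals this order was not kept. The exonic ratio was 0.11 (-0.04 to 0.27) for the motors, -0.09 (-0.40 to 0.23) for the tubulins and -0.63 (-1.84 to 0.73) for the axonemal dyneins. For coding sequence the tubulin ratio was -0.63 (-1.03 to -0.19).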

How the data were processed

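iCLIP was measured in wild-type MCF10A cells with PDCD4 antibody (2 replicates) and isotype control IgG (2 replicates). Per the methods, reads were analysed in iCount on the genome of Ensembl release 88, sites found with IgG were removed from the PDCD4 replicates and replicates were merged. The authors deposited 1 list per antibody; the score of each site in the deposited lists is a raw cDNA count, not normalized. A further filter of the methods, on scores greater than 5, had not been applied to these lists and was tried here only as an alternative. Depth was 409308 PDCD4 and 276139 IgG cDNAs.

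Sites were assigned, by strand and for each labelled gene, to regions of GENCODE release 44 (GRCh38, the build of the sites) with coding sequence taken first, then 3′UTR, 5′UTR, exons of non-coding genes and introns; exons of non-coding transcripts of coding genes counted as intron, and a site with several labels counted for each gene. Coding lengths, exon numbers and coding levels per kilobase refer to the main transcript. Shares are cDNAs per 10000 cDNAs of a list. Log2 ratios of shares have 1 cDNA added to each sum, and their 95% exact binomial intervals come from the sums without it; exonic, coding and intronic ratios use the totals of the same region in each list. A gene was called at a log2 ratio of at least 1 or at most -1 with at least 20 cDNAs over both lists. How duplicate cDNAs were collapsed is not given in the sources used here, and intervals cover counting error only. The merged lists hold no value per replicate, so there was no test.

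The members and lists were chosen with earlier results of these data known. Genes were named by this rule: the 12 with the most PDCD4 and the 5 with the most IgG cDNAs, the 6 highest and 6 lowest ratios with at least 50 cDNAs, the 5 with the highest PDCD4 site, the largest gene of each role, and the 5 largest of the partner list with any whose site exceeded 10; ties were kept. The other members, and the other partner, tubulin and axonemal dynein genes, were named after their values were seen, so that every member is accounted for. The ratio and its call were tested on simulated data. Alternatives were other score thresholds, numbers of sites, other totals, pseudocounts and minimums, merging of neighbouring sites, region order and leaving out genes or sites. Python 3.11.15 was used with numpy 2.4.6, scipy 1.17.1, pandas 2.3.3 and matplotlib 3.10.9.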

Additional observations from a re-analysis of the deposited data

How the results depend on the processing

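Of 45 alternative values for the counts of genes past 2-fold, the summed log2 ratio and the coding shares, 14 moved, by more than 1.5 times for a count or beyond the 95% counting interval of the main value for a ratio or share. The 6 higher genes became 2 with numbers of sites (24 genes tested), 2 with intronic sites (26 tested) and 2 with a minimum of 50 cDNAs (24 tested). The 2 lower genes became 1 with numbers of sites, 1 with exonic sites (23 tested), 4 with a minimum of 10 cDNAs (44 tested) and 0 with a minimum of 50; with a minimum of 50 or with a part of the sites, fewer genes were tested. The summed log2 ratio of 0.19 became 0.051 with intronic sites and -1.69 with sites of a score greater than 5, which rests on 29 PDCD4 and 24 IgG cDNAs. At that score the coding share was 65.5% for PDCD4 and 25.0% for IgG. The PDCD4 coding share of 34.8% became 29.4% with introns placed before exonic regions and 27.9% without DYNC1H1, and the IgG share of 21.2% became 18.3% without DYNC1H1. The log2 ratio of DCTN5 turned to -1.36 with intronic sites only, and the cause was not tested. Of 71 alternative log2 ratios for the 8 called genes, 9 were no longer past 2-fold in the same direction: 4 for KIF1BP, 3 for KIF1C and 1 each for DCTN5 and DYNC1LI1, with values down to 0.13 for KIF1BP with intronic sites. DYNLL1, KIF18A, KIF20A and KIF24 stayed past 2-fold in all of theirs. No gene reached 20 cDNAs at scores greater than 5, and no site remained at scores greater than 10, so those alternatives gave no counts.

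No paired analysis was possible because each list merges its replicates, which also means that no replicate was left out in turn. The counts limit the ratios: DYNLL1 has no upper end to its interval, and that of KIF20A runs from 0.96 to 5.02. The effect of the removal of IgG sites by the authors and of RNA abundance was not tested.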
